A study of Mus musculus with 12 samples.

Results

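Smad4KO pancreatic tumour cells were compared with WT tumour cells from mice, gene by gene across the transcriptome. Members were the 3 Smad4KO and 3 WT libraries of a series of 12, chosen by their genotype labels, and the 13662 of 24493 genes with at least 1 TPM in at least 3 of the 12 libraries. TPM is a gene's share of the transcripts of a library, scaled to a fixed total, after allowing for transcript length. The tumour cells carry the name 6649c2 in all groups. They were implanted under the skin, with C57BL/6 given as the strain, and sorted from the tumours that formed, in the Smad4KO, EgfrKO, Klf5KO and WT groups alike. The 2 other knockouts, of the epidermal growth factor receptor gene Egfr and the transcription factor gene Klf5, were used only to test where Smad4KO differed from them. The labels name neither the alleles that drive the tumours nor the sorting gate. They do not say whether the Smad4 knockout was a single clone or a pool of cells, so a difference between clones and an effect of Smad4 loss cannot be told apart. They also do not say whether the replicates were separate animals, so p-values measure only the spread between these libraries, which may be technical.

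SMAD4 is the common partner of the receptor-activated SMADs. Ligands of the TGF-beta and activin branch lead to phosphorylation of SMAD2 and SMAD3, and bone morphogenetic proteins (BMPs) to that of SMAD1 and SMAD5. Each then joins SMAD4, enters the nucleus with it and binds regulatory DNA, and the inhibitory SMADs, SMAD6 and SMAD7, dampen both branches. In the pancreas SMAD4 is a tumour suppressor that is often lost in ductal adenocarcinoma, and TGF-beta signalling through SMADs is a classical inducer of epithelial-to-mesenchymal transition (EMT) and of matrix genes.

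The targeted transcript was lower but present in the libraries labelled as knockout. Smad4 (chr18:73634790-73703791 in GRCm38.p6) had 29.8, 33.4 and 28.9 TPM in the Smad4KO libraries, against 70.9, 75.7 and 79.8 TPM in the WT libraries. The groups did not overlap, and Smad4KO held 40.7% of the WT mean. The log2 change was -1.27 ± 0.068 (SE), with an adjusted p of 6.9e-08. Fold changes here are on the log2(TPM + 1) scale, Smad4KO minus WT, from a limma fit of all 12 libraries, and a gene was called at an adjusted p under 0.05. The two-sided exact permutation test on TPM gave p = 0.1, the smallest that 3 libraries against 3 allow. A gene-level TPM does not show whether the remaining transcripts encode a working protein.

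Across genes, log2(TPM + 1) values correlated at 0.982 to 0.988 among Smad4KO libraries, at 0.986 among WT libraries and at 0.938 to 0.950 between the genotypes, and genes are not independent replicates. Between 12712 and 12894 genes reached 1 TPM in Smad4KO libraries. The read depth is unknown, because TPM keeps none, and a gene at 0 is described as listed at 0. Epithelial markers were abundant in every library. Krt8, a keratin of simple epithelium, had 3027, 3426 and 3164 TPM in the Smad4KO libraries, against 2017, 2227 and 2117 TPM in the WT libraries. The 7 tested epithelial markers were all higher in Smad4KO, with a summed level of 7850 to 8810 TPM, against 5430 to 5880 TPM in WT. Some libraries stood apart within their group. Smad4KO replicate 2 was low in macrophage transcripts, with Lyz2 at 276, 69.3 and 274.5 TPM in the 3 Smad4KO libraries, and WT replicate 3 was low in interferon-induced transcripts. Values without these libraries are given below for some of the counts and calls that they moved.

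In 4400 genes (32.2% of those tested) expression was higher in Smad4KO than in WT, and in 2381 (17.4%) it was lower. The median change over all genes was 0.097 on the log2 scale. After median-of-ratios scaling, which moved that median by -0.101, the split was 3427 genes higher (25.1%) and 3381 lower (24.7%). The excess of increases over decreases therefore depended on the scaling. List medians below are to be read against 0.097, and counts of list members against the 32.2% higher and 17.4% lower of all genes. All 2381 genes called lower stayed lower after scaling. The scaling moved changes downward and so favoured lower calls. That such calls stayed, here and in the lists below, is therefore no test of them. Changes of at least 1 on the log2 scale were rarer, with 739 called genes higher (5.41%) and 470 lower (3.44%). A stricter test against a minimum change of 0.5 called 932 genes higher (6.82%) and 562 lower (4.11%). In 5231 genes (38.3%) all Smad4KO libraries lay above all WT libraries, and in 2838 (20.8%) below.

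Smad6, the members of the TGF-beta lists and the epithelial junction genes are described below with their values, and promoters of a few of them are printed here because SMADs and the EMT repressors bind short DNA motifs. The promoters are RefSeq sequences of the GRCm38.p6 build from 250 bases before to 50 after an annotated gene start, 5′ to 3′ on the gene's strand. Capitals mark matches, on both strands, to 4 motifs. The SMAD palindrome has the letters GTCTAGAC. The CAGA box is written CAGACA here and reads TGTCTG on the other strand. The GC-rich SMAD motif has the letters GGCGCC. The E-box form that SNAI and ZEB repressors bind is written CAGGTG and reads CACCTG on the other strand. No matches overlap one another in the sequences shown. The palindrome of Smad6 begins 4 bases before the gene start and spans it, and the first Slc20a1 promoter has a CAGA box. Epcam, the second Ocln promoter and Spint2 show the E-boxes of 3 junction genes.
Smad6 (chr9:64022010-64022309, minus strand): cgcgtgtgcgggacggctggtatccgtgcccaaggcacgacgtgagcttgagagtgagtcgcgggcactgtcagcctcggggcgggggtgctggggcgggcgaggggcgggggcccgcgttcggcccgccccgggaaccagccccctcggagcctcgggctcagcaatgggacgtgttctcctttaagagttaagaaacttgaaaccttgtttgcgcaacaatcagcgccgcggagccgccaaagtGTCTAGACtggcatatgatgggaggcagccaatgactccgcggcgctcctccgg
Slc20a1 (chr2:129198523-129198822, plus strand): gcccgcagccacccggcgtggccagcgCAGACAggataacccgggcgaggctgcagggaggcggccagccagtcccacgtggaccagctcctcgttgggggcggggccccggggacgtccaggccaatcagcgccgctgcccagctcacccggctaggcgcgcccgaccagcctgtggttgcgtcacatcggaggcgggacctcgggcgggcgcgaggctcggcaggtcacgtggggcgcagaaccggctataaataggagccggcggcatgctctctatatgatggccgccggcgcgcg
Epcam (chr17:87635729-87636028, plus strand): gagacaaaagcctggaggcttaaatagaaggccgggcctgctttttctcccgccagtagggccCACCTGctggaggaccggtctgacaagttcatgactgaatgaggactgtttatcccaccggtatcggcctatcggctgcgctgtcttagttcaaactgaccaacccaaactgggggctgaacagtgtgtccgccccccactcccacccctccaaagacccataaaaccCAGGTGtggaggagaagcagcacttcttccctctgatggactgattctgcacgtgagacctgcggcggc
Ocln (chr13:100552449-100552748, minus strand): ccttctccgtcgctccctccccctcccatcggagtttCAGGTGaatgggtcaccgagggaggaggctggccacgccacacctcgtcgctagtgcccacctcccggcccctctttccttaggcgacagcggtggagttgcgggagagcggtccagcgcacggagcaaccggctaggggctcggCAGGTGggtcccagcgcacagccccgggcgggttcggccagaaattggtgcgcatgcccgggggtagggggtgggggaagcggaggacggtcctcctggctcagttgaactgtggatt
Spint2 (chr7:29281928-29282227, minus strand): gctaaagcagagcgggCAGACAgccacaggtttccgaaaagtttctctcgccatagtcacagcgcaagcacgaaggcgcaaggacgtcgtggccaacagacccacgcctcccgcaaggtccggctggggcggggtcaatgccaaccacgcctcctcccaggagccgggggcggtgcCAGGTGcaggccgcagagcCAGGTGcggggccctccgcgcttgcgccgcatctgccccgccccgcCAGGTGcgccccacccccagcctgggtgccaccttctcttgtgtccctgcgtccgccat

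The palindrome was present in 0.228% of the 13140 promoters of tested genes. Promoters were available for 8 of 11 tested feedback genes, 10 of 25 target genes and 3 of 5 BMP target genes. Among these Smad6 was the single gene with the palindrome, and the other members were not searched. The CAGA box was in 6 of 15 promoters of the feedback list (40.0%) and in 3 of 13 of the target list (23.1%), against 16.5% of promoters of tested genes. By gene, it was in 5 of 8 feedback genes and 2 of 10 target genes, against 2000 of 10387 tested genes with a promoter. The count of target promoters includes both starts of Slc20a1, and by gene the target list was near the share of tested genes. For the junction list, 16 of 26 tested genes had a promoter in the table, and 14 of their 24 promoters (58.3%) held the E-box, against 18.3%. By gene, it was in 10 of 16, against 2176 of 10387 tested genes. Several promoters are alternative starts of 1 gene that share bases, so they are not independent. A match describes letters and shows no binding.

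Several SMAD genes beside Smad4 were lower in Smad4KO, and the inhibitory pair moved apart. Of 7 tested SMAD genes, 5 were lower (71.4%, against 17.4% of all genes) and 1 was higher (14.3%, against 32.2%), with a median of -0.32. The 5 include Smad4, the targeted gene, whose decrease says nothing of the others. Smad7, the inhibitor that TGF-beta itself induces, had 34.7, 37.7 and 34.7 TPM in the Smad4KO libraries, against 56.3, 61.4 and 66.03 TPM in the WT libraries. Its groups did not overlap, and the log2 change was -0.76 ± 0.068 (SE), with an adjusted p of 3.29e-06. Smad6, the inhibitor of the BMP branch, had 12.4, 14.8 and 13.7 TPM in the Smad4KO libraries, against 7.35, 6.63 and 6.57 TPM in the WT libraries. It was the 1 SMAD gene that was higher, at a log2 change of 0.896 ± 0.089 (SE), with an adjusted p of 7.47e-06. The receptor-activated Smad2 and Smad3 changed by -0.41 and -0.32, and every Smad4KO library was below every WT library for both. Smad1, at -0.21, lost its call when Smad4KO replicate 2 (adjusted p = 0.0603) or WT replicate 3 (0.0809) was left out, and Smad5, at -0.15, was not called (adjusted p = 0.204) but was called lower after scaling.

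Among 18 tested ligands and receptors of the family, 5 were higher and 8 were lower, against 32.2% and 17.4% of all genes. Bmp2 and Inhba had the largest decreases. Inhba, which encodes the subunit of activin A, had 25.1, 26.5 and 23.1 TPM in the Smad4KO libraries, against 76.7, 80.1 and 95.6 TPM in the WT libraries. Its log2 change was -1.71 ± 0.082 (SE), with an adjusted p of 3.36e-08. Bmp2, a ligand of the BMP branch, had 1.78, 1.58 and 1.66 TPM in the Smad4KO libraries, against 8.32, 7.29 and 9.79 TPM in the WT libraries, and the Smad4KO mean was 19.7% of the WT mean. Both ligands were lower in every Smad4KO library than in any WT library. Tgfb1, the main TGF-beta ligand gene of these cells by TPM, had 81.4, 85.1 and 88.5 TPM in the Smad4KO libraries, against 153, 157 and 163 TPM in the WT libraries. The log2 change was -0.88 ± 0.053 (SE), with an adjusted p of 1.48e-07. Tgfb3 and Bmp4 went the other way, at 0.57 and 0.85. Bmp4 had 22.04, 25.7 and 24.01 TPM in the Smad4KO libraries, against 11.9, 13.6 and 12.8 TPM in the WT libraries, with no overlap.

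Of the receptors, Tgfbr2, the receptor that binds TGF-beta first, was higher and its partner Tgfbr1 was lower. Tgfbr2 had 34.1, 36.8 and 32.7 TPM in the Smad4KO libraries, against 22.9, 25.6 and 21.1 TPM in the WT libraries, a log2 change of 0.56 ± 0.084 (SE), with an adjusted p of 0.000201. Tgfbr1 changed by -0.31 (adjusted p = 0.0176) and lost its call without Smad4KO replicate 3 (adjusted p = 0.0723) or WT replicate 2 (0.063). Bmpr1a, a type I BMP receptor, was higher at 0.32, and the activin and BMP receptor Acvr1 was lower at -0.65. The small increase of Acvr1b, at 0.23, was lost after scaling (adjusted p = 0.157). Gdf15, a stress-induced ligand of the family, was lower at -1.13.

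All 11 tested genes of the TGF-beta feedback and corepressor list were lower in Smad4KO, with a median of -0.57. After scaling, which favours lower calls, all 11 stayed lower. They include the SMAD corepressors Ski and Skil, the SMAD ubiquitin ligases Smurf1 and Smurf2, and the latent TGF-beta binding proteins. Pmepa1, a TGF-beta-induced membrane protein that holds SMADs away from the receptor, had 73.2, 80.8 and 71.9 TPM in the Smad4KO libraries, against 119, 110.4 and 117 TPM in the WT libraries. The log2 change was -0.61 ± 0.061 (SE), with an adjusted p of 7.97e-06. Ltbp2 had 1.84, 2.32 and 1.72 TPM in the Smad4KO libraries, against 8.67, 6.64 and 8.96 TPM in the WT libraries. Its decrease was the largest of the list, -1.61. The smallest was Smurf2 at -0.27, which lost its call without Smad4KO replicate 3 (adjusted p = 0.0653) or WT replicate 3 (0.0729). Of the 11, 3 passed the test against a minimum change of 0.5, against 4.11% of all genes.

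Of 25 tested TGF-beta target genes, 19 were lower, 3 were higher and 3 were not called, with a median of -0.67. In the test against a minimum change of 0.5, 12 were lower and 1 was higher. Tgfbi, a matrix protein named for its induction by TGF-beta, had 10.9, 6.59 and 12.9 TPM in the Smad4KO libraries, against 30.6, 37.4 and 37.05 TPM in the WT libraries. The genotypes did not overlap, and Tgfbi was lowest in Smad4KO replicate 2. Without that library its log2 change was -1.48 (adjusted p = 7.5e-06), against -1.74 with it. Slc20a1, a phosphate transporter whose promoter is printed above, had 26.6, 30.5 and 28.99 TPM in the Smad4KO libraries, against 116.5, 100.2 and 115 TPM in the WT libraries. The Smad4KO mean was 25.9% of WT. Pthlh, the parathyroid hormone-related peptide, had 2.64, 3.80 and 3.60 TPM in the Smad4KO libraries, against 16.6, 18.4 and 15.6 TPM in the WT libraries. This was the largest decrease of the list, at -2.05 ± 0.15 (SE), with an adjusted p of 5.7e-07. Decreases of more than 1 on the log2 scale were also found for Cyr61 (-1.64), Thbs1 (-1.41), Mmp9 (-1.71), Rhob (-1.25) and Fn1 (-1.03).

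The target genes that were higher were Tgm2, Itgb6 and Ctgf. Tgm2, the matrix cross-linking tissue transglutaminase, had 432, 461 and 441 TPM in the Smad4KO libraries, against 165, 159.8 and 136 TPM in the WT libraries. It was higher in every Smad4KO library, with a log2 change of 1.53 ± 0.076 (SE), with an adjusted p of 4.21e-08. Ctgf, which also responds to YAP, had 227, 219.7 and 219 TPM in the Smad4KO libraries, against 201, 182 and 171 TPM in the WT libraries. Its libraries did not overlap, but the change of 0.27 lost its call after median-of-ratios scaling (adjusted p = 0.204) and when any of 5 single libraries was left out. Cdkn1a, the cell cycle inhibitor p21, was lower at -0.49 and lost its call without WT replicate 2 (adjusted p = 0.0587) or WT replicate 3 (0.0592). The members not called were Col1a1, Tagln and Lox.

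BMP target genes did not move together. Of 5 tested, Id1 and Smad6 were higher, Id3 and Hey1 were lower, and Id2 was not called. Id1, an inhibitor of helix-loop-helix factors, had 89.9, 84.97 and 82.1 TPM in the Smad4KO libraries, against 63.9, 61.3 and 63.2 TPM in the WT libraries, a log2 change of 0.44 with no overlap. Id3 was low in both genotypes, at 0.577, 1.14 and 2.32 TPM in the Smad4KO libraries, against 3.05, 2.63 and 4.34 TPM in the WT libraries, and its decrease lost its call without Smad4KO replicate 1 (adjusted p = 0.0703) or WT replicate 3 (0.0664). Grem1, a secreted antagonist of BMPs, was among the 12 largest decreases of all tested genes. It had 5.04, 5.79 and 3.77 TPM in the Smad4KO libraries, against 33.1, 34.6 and 46.1 TPM in the WT libraries, a log2 change of -2.73 ± 0.18 (SE), with an adjusted p of 3.07e-07.

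**Figure D1:**
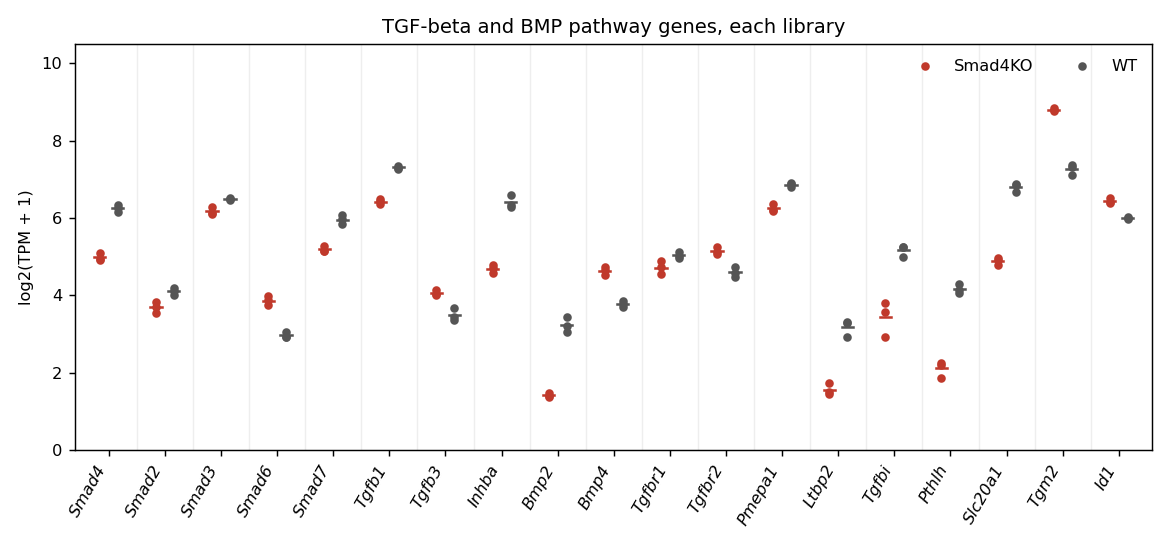
The plot of pathway genes gives log2(TPM + 1) on the y axis for 19 genes of the TGF-beta and BMP pathways on the x axis, with a point for each library and a line for each group mean, Smad4KO in red and WT in grey. Smad4, Smad7, Inhba, Bmp2 and the targets Pthlh and Slc20a1 sit lower in Smad4KO, while Smad6, Bmp4, Tgfbr2, Tgm2 and Id1 sit higher.

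The 12 largest increases were those of Pigr, Sftpd, Spink4, Ckmt1, Sptssb, Gpx2, Gsta3, Prap1, Tff3, Oit1, Wfdc18 and C3. Pigr (chr1:130826684-130852249), the receptor that carries immunoglobulins across epithelia, had 52.8, 54.4 and 53.1 TPM in the Smad4KO libraries, against 0.625, 0.206 and 0.317 TPM in the WT libraries. It was below 1 TPM in every WT library, and the Smad4KO mean was 140.0 times the WT mean. The log2 change was 5.31 ± 0.13 (SE), with an adjusted p of 6.55e-10. Sftpd, the collectin surfactant protein D, had 107, 103.5 and 97.9 TPM in the Smad4KO libraries, against 1.46, 3.57 and 2.03 TPM in the WT libraries. Spink4, a protease inhibitor of goblet cells, had 78.4, 57.02 and 71.8 TPM in the Smad4KO libraries, against 0, 2.54 and 2.23 TPM in the WT libraries. Sftpd and Spink4 did not overlap between genotypes. Pigr passed the filter only through its Smad4KO libraries, so its lack of overlap was fixed by the filter. Tff3, a trefoil factor of mucus-secreting cells, had 18.3, 13.7 and 11.7 TPM in the Smad4KO libraries and was listed at 0 in all 3 WT libraries. Ckmt1, a mitochondrial creatine kinase, had 31.8, 31.6 and 30.1 TPM in the Smad4KO libraries, against 0.448, 0.593 and 0.644 TPM in the WT libraries. The other 7 genes had log2 changes from 3.81 for C3 to 4.32 for Sptssb.

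Among the 12 largest decreases was that of Dynap. Dynap, which encodes a membrane protein, had 1.37, 1.75 and 1.52 TPM in the Smad4KO libraries, against 22.5, 39.6 and 33.05 TPM in the WT libraries, a log2 change of -3.65 ± 0.17 (SE), with an adjusted p of 3.01e-08. Mgp (chr6:136872435-136875823), the matrix Gla protein that inhibits calcification, had 25.3, 12.97 and 17.3 TPM in the Smad4KO libraries, against 204.5, 166 and 181 TPM in the WT libraries. Its Smad4KO mean was 10.1% of the WT mean. Both were lower in every Smad4KO library. Piezo2, a mechanically gated ion channel, had 3.98, 4.75 and 3.24 TPM in the Smad4KO libraries, against 35.6, 29.97 and 37.8 TPM in the WT libraries. Csf2, the growth factor GM-CSF, had 7.67, 4.32 and 6.13 TPM in the Smad4KO libraries, against 26.8, 58.9 and 47.8 TPM in the WT libraries. The WT libraries of Csf2 differed widely among themselves but lay above all Smad4KO libraries. Gzme and Mcpt8, a granzyme and a member of the mast cell protease family, both on chromosome 14, had log2 changes of -3.595 and -3.11. Members of this protease family are alike in sequence, so the split of their reads is uncertain. Ccbe1, Lmcd1, Ifitm1, Arc, Siglec15 and Grem1 complete the 12, with log2 changes from -3.302 for Ccbe1 to -2.73 for Grem1.

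**Figure D2:**
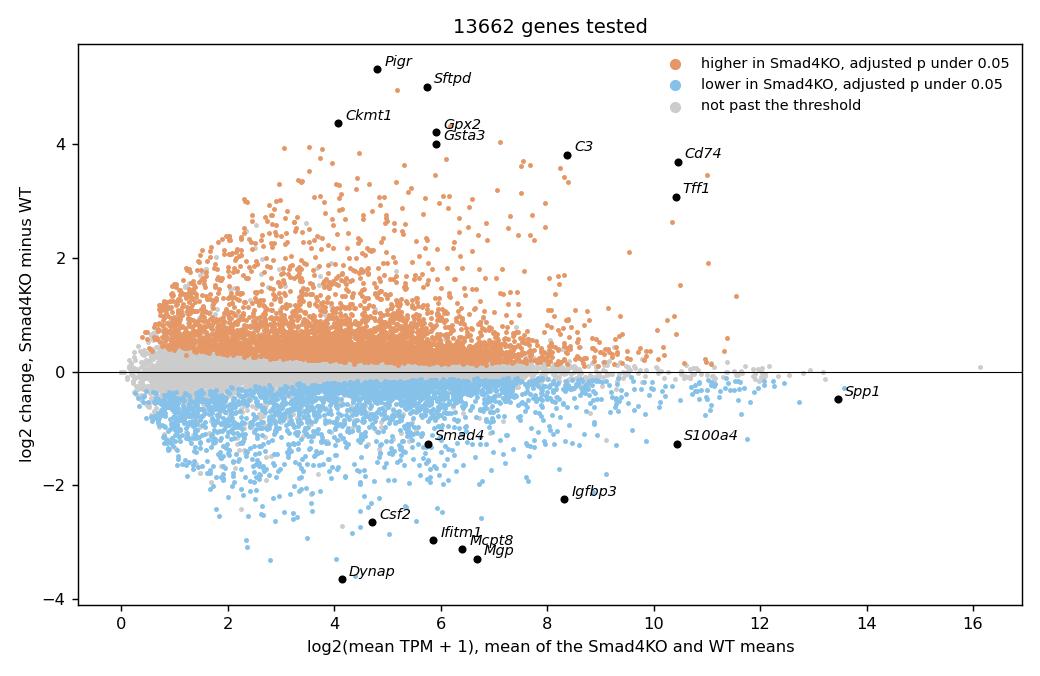
The scatter of all genes gives the log2 change, Smad4KO minus WT, on the y axis against the log2(mean TPM + 1) of each of the 13662 genes on the x axis, orange where called higher, blue where called lower and grey otherwise. Pigr and Sftpd lie highest, and Dynap and Mgp near the bottom, with Smad4 at -1.27.

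Most tested epithelial genes were higher in Smad4KO. Of 26 tested genes of cell junctions and epithelial adhesion, 22 were higher and none was lower, with a median of 0.93. The 4 not called were Tjp1, Pard3, Dsg2 and Ctnnd1. After scaling, 21 stayed higher. The list holds 35 genes. Cldn1, Cldn3, Cldn4, Cldn23, Esrp1, Grhl1, Grhl2, Ovol2 and Rab25 were below the filter and were not tested. Ocln (chr13:100496504-100552718), the tight junction protein occludin, had 25.3, 28.7 and 24.2 TPM in the Smad4KO libraries, against 3.38, 3.69 and 2.60 TPM in the WT libraries. It was 8.09 times the WT mean and had the largest change of the list, 2.69 ± 0.13 (SE), with an adjusted p of 3.48e-08. Epcam, the epithelial adhesion molecule, had 40.7, 41.02 and 36.8 TPM in the Smad4KO libraries, against 11.4, 14.6 and 14.6 TPM in the WT libraries. Spint2, a protease inhibitor of epithelial surfaces and the most abundant member, had 762, 781 and 770.3 TPM in the Smad4KO libraries, against 371, 368 and 328 TPM in the WT libraries. All 3 genes were higher in every Smad4KO library, and their E-boxes are shown above. Other increases were those of Marveld3 (2.19), Tjp3 (2.09), Cldn18 (2.52) and the desmosome gene Dsp (1.501).

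Keratins of simple epithelium were higher in 5 of 7 cases. Krt7, a ductal keratin, had 131, 132 and 135 TPM in the Smad4KO libraries, against 58.01, 63.8 and 63.04 TPM in the WT libraries, a log2 change of 1.09, and Krt19 changed by 0.66. Krt23 was lower at -0.62. Of 11 tested squamous and basal-like genes, 2 were higher (18.2%, against 32.2% of all genes) and 3 were lower (27.3%, against 17.4%), or 6 lower after scaling. Krt14, a basal keratin, had 47.8, 52.5 and 52.2 TPM in the Smad4KO libraries, against 105, 94.5 and 101 TPM in the WT libraries, a log2 change of -0.97, and Sprr2a3, of a family of near-identical genes whose reads may be split wrongly, was higher at 2.095.

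Gastric genes and those of the classical subtype of pancreatic cancer were also mostly higher. Of 36 tested, 30 were higher and 2, Sox2 and Sox9, were lower, with a median of 1.20. After scaling, 27 stayed higher. Tff1 had 2451, 2359 and 2475 TPM in the Smad4KO libraries, against 332, 338 and 212 TPM in the WT libraries. Tff2 had 2350.0, 1942 and 2408 TPM in the Smad4KO libraries, against 461, 381 and 259 TPM in the WT libraries. These trefoil factors of gastric mucus were already abundant in WT and were higher in all 3 Smad4KO libraries. Gkn2, a gastrokine of the stomach lining, had 11.7, 13.8 and 11.3 TPM in the Smad4KO libraries, against 0.826, 0.614 and 0.534 TPM in the WT libraries. Spdef, a transcription factor of mucus-secreting cells, had 9.78, 6.88 and 9.03 TPM in the Smad4KO libraries, against 0.874, 0.238 and 0.215 TPM in the WT libraries, and its log2 change was 2.75 ± 0.18 (SE), with an adjusted p of 2.84e-07. Erbb3, counted here and among the ERBB receptors, changed by 1.24.

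EMT factors and mesenchymal genes were mostly lower. Of 22 tested, 18 were lower, 1 (Tpm2) was higher and 3 were not called, with a median of -0.50. Snai1, an E-box-binding repressor that drives EMT, had 0.586, 1.004 and 1.07 TPM in the Smad4KO libraries, against 3.95, 3.98 and 5.07 TPM in the WT libraries. Its level was low in both genotypes, and the log2 change was -1.501 ± 0.20 (SE), with an adjusted p of 8.75e-05. Vim, the intermediate filament vimentin and the most abundant member, had 2379, 2711 and 2543 TPM in the Smad4KO libraries, against 3433, 3423 and 3925 TPM in the WT libraries. Its log2 change was -0.497, with every Smad4KO library below every WT library. Itga5, the fibronectin receptor subunit, had 28.2, 28.4 and 25.5 TPM in the Smad4KO libraries, against 86.3, 90.5 and 95.4 TPM in the WT libraries. It had the largest decrease of the list, at -1.69 ± 0.061 (SE), with an adjusted p of 6.21e-09. S100a4 had 819, 807 and 805 TPM in the Smad4KO libraries, against 1915, 1841 and 2104 TPM in the WT libraries, and Cald1 changed by -1.28. Without overlap between genotypes, both were lower in Smad4KO. After scaling, which favours lower calls, the Tpm2 call was lost and 18 members were lower.

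**Figure D3:**
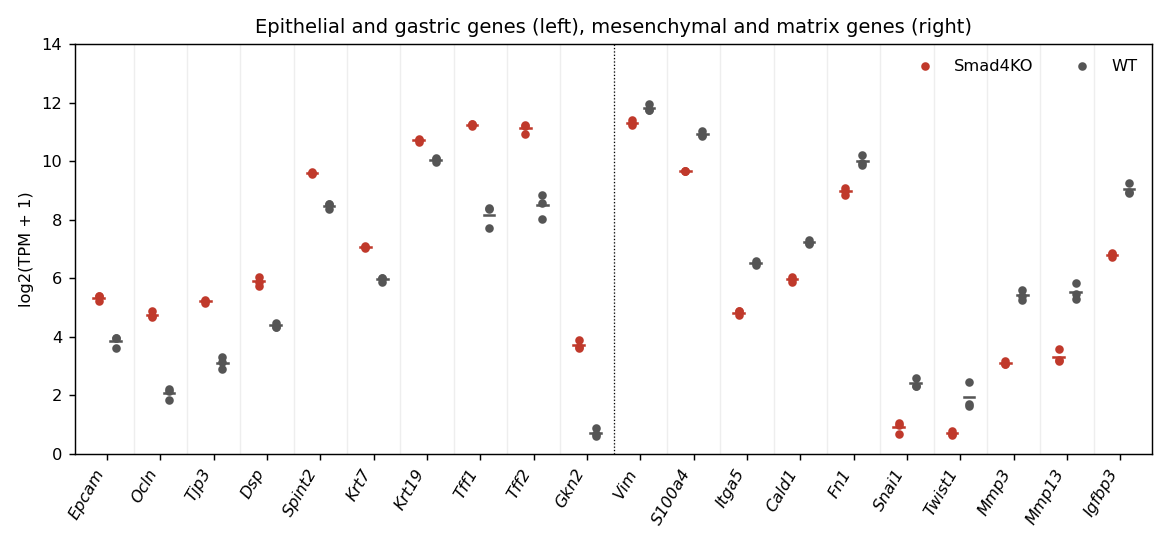
The plot of epithelial and mesenchymal genes gives log2(TPM + 1) on the y axis for 20 genes on the x axis, a point for each library and a line for each group mean, Smad4KO in red and WT in grey. The 10 epithelial and gastric genes on the left are higher in all Smad4KO libraries, and the 10 mesenchymal and matrix genes on the right are lower.

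Matrix genes and their proteases had more members lower than higher. Of 33 tested matrix and matricellular genes, 19 were lower, 2 were higher and 12 were not called, with a median of -0.53. Without WT replicate 3 the median was -0.73 and 21 were lower. The number higher was 1 after scaling or when Smad4KO replicate 1, Smad4KO replicate 2, WT replicate 2 or WT replicate 3 was left out. Of 27 tested proteases and inhibitors, 19 were lower and 5 were higher, with a median of -0.78. Igfbp3, a binding protein of insulin-like growth factors and a TGF-beta-induced gene, had 104, 111.5 and 114 TPM in the Smad4KO libraries, against 487, 479.7 and 612 TPM in the WT libraries. The log2 change was -2.24 ± 0.095 (SE), with an adjusted p of 1.71e-08. Igfbp5, of the same family, went the other way, with 75.6, 79.5 and 71.8 TPM in the Smad4KO libraries, against 20.7, 26.9 and 19.9 TPM in the WT libraries. Mmp3, the stromelysin, had 7.31, 7.95 and 7.48 TPM in the Smad4KO libraries, against 41.3, 37.5 and 47.04 TPM in the WT libraries, and Mmp13, a collagenase, had 8.29, 10.98 and 7.91 TPM in the Smad4KO libraries, against 37.8, 43.5 and 56.6 TPM in the WT libraries. These secreted proteases were lower in every Smad4KO library, whereas the membrane-bound Mmp15 was higher at 2.27. Of the fibrillar collagens, Col1a1 had 17.1, 24.2 and 16.1 TPM in the Smad4KO libraries, against 41.6, 28.7 and 17.5 TPM in the WT libraries, and its change was not called (adjusted p = 0.174). Of 13 tested fibroblast markers 4 were lower (30.8%, against 17.4% of all genes), or 7 without WT replicate 3. The markers had a summed TPM of 70.2 to 101 in Smad4KO and 81.4 to 177 in WT. The part of fibroblast RNA in the matrix counts was not tested, and in bulk RNA fewer cells of a type and less RNA per cell cannot be told apart.

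Most genes of EGF-family signalling were lower, with ligands on both sides. Of 11 tested ERBB receptors and ligands, 8 were lower and 3 were higher, with a median of -0.68. Hbegf, a membrane-shed ligand of EGFR, had 113, 116 and 111 TPM in the Smad4KO libraries, against 287.5, 254 and 277 TPM in the WT libraries. Areg, amphiregulin, had 25.5, 29.9 and 25.1 TPM in the Smad4KO libraries, against 71.9, 82.2 and 86.6 TPM in the WT libraries. Smad4KO thus held 41.5% of the WT mean for Hbegf and 33.4% for Areg. The 3 higher members were Erbb2, Erbb3 and Nrg4. Nrg4, a neuregulin ligand, had 5.99, 6.44 and 6.52 TPM in the Smad4KO libraries, against 3.63, 2.53 and 2.10 TPM in the WT libraries, a log2 change of 0.98 ± 0.17 (SE), with an adjusted p of 0.00046. Erbb3, the neuregulin receptor, had 31.2, 36.6 and 28.9 TPM in the Smad4KO libraries, against 12.8, 15.4 and 11.2 TPM in the WT libraries, higher in every Smad4KO library. Of 21 tested genes that give feedback on ERK, 13 were lower and 1 was higher, a call lost after scaling. Dusp5, a phosphatase of nuclear ERK, had 66.5, 69.9 and 66.8 TPM in the Smad4KO libraries, against 166, 177 and 203 TPM in the WT libraries, a log2 change of -1.41 ± 0.085 (SE), with an adjusted p of 1.63e-07. Ier3, an early response gene, changed by -1.79.

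WNT and YAP targets had calls in both directions, with shares of higher calls near that of all genes. Of 13 tested WNT genes 5 were higher (38.5%, against 32.2% of all genes) and 5 were lower (38.5%, against 17.4%), among them the ligands Wnt4 at 1.58 and Wnt7b at -1.47, and the receptor Lgr4 at 1.42. Of 20 tested YAP targets 8 were higher (40.0%) and 7 were lower (35.0%), with 5 higher after scaling or without Smad4KO replicate 2. The extremes were Fjx1 at 1.72 and Cyr61 at -1.64. Cyr61 had 22.5, 21.96 and 22.4 TPM in the Smad4KO libraries, against 73.6, 68.4 and 73.3 TPM in the WT libraries. Cyr61 and Ctgf are the classical pair of YAP targets. The increase of Ctgf was small, at 0.27, and lost its call after scaling (adjusted p = 0.204). Opposite changes of the pair are therefore not shown.

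Several other lists had calls in both directions. Of 17 tested targets of the stress factor ATF4, 6 were higher (35.3%) and 7 were lower (41.2%), against 32.2% and 17.4% of all genes. The number higher was 3 after scaling or without WT replicate 2 or WT replicate 3. Asns, asparagine synthetase, had 55.1, 60.3 and 58.5 TPM in the Smad4KO libraries, against 34.9, 27.4 and 27.8 TPM in the WT libraries, and Atf3, a stress-induced transcription factor, had 54.4, 48.02 and 55.7 TPM in the Smad4KO libraries, against 106, 138 and 136 TPM in the WT libraries. Each was separated between the genotypes, in opposite directions. Of 16 tested endoplasmic reticulum chaperones and XBP1 targets, 9 were higher (56.2%) and 2 were lower (12.5%), with Xbp1 itself at 0.804. Of 16 tested NF-kappaB factors and feedback genes, 4 were higher (25.0%) and 5 were lower (31.2%), with the feedback inhibitor Tnfaip3 at -0.96. Of 12 tested integrin genes, 4 were higher (33.3%) and 3 were lower (25.0%), near the shares of all genes, or 5 lower after scaling. They ranged from Itga5 at -1.69 to Itga7 at 1.14. The 29 tested genes of cholesterol and fatty acid synthesis had 8 higher (27.6%, against 32.2% of all genes) and 5 lower (17.2%, against 17.4%), close to the shares of all genes, or 5 higher and 10 lower after scaling, and 1 lower without Smad4KO replicate 1 or Smad4KO replicate 3. Of 19 tested cyclins, kinases and inhibitors of the G1 phase, 5 were higher (26.3%) and 4 were lower (21.1%), again near the shares of all genes. The number higher was 3 without Smad4KO replicate 2 or WT replicate 3, and the number lower was 7 after scaling and 2 without WT replicate 2 or WT replicate 3. Ccnd2, cyclin D2, had 47.96, 54.3 and 45.5 TPM in the Smad4KO libraries, against 19.4, 20.5 and 19.9 TPM in the WT libraries and stood out among them at 1.26.

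Genes of detoxification and redox control were mostly higher. Of 26 tested NRF2 and detoxification genes, 21 were higher and 2 were lower, with a median of 1.25. After scaling, 18 stayed higher. Gpx2, a glutathione peroxidase of gut epithelium, had 115, 109.8 and 114 TPM in the Smad4KO libraries, against 3.58, 5.52 and 6.84 TPM in the WT libraries. The log2 change was 4.21 ± 0.16 (SE), with an adjusted p of 7.69e-09. Cbr3, a carbonyl reductase, had 49.8, 46.9 and 53.2 TPM in the Smad4KO libraries, against 5.09, 5.31 and 4.72 TPM in the WT libraries. Neither gene overlapped between the genotypes. Gsta1 and Gsta2, glutathione S-transferases, changed by 3.62 and 2.999, with reads that may be shared between near-identical copies. Outside Smad4KO, Gsta2 reached 1 TPM only in EgfrKO replicate 3, so it passed the filter through its Smad4KO libraries. Its p-value is not independent of the filter, and it is counted among the 21 higher genes. The 2 that were lower were Hmox1 and Slc7a11, named after their values were seen, and 1 of them lost its call without Smad4KO replicate 3 or WT replicate 1. Hmox1, the heme oxygenase, had 43.4, 33.9 and 43.8 TPM in the Smad4KO libraries, against 108.5, 162 and 118 TPM in the WT libraries, opposite to the rest of the list.

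All 10 tested complement genes were higher, with a median of 1.78. C3, the central complement component, had 629, 631 and 592 TPM in the Smad4KO libraries, against 49.8, 49.5 and 32.5 TPM in the WT libraries, a log2 change of 3.81 ± 0.13 (SE), with an adjusted p of 4.72e-09. C1ra and C1s1, proteases of the first component, changed by 3.32 and 3.29. Mucosal defence genes were higher in 8 of 16 tested cases. Dmbt1, a scavenger receptor secreted onto mucosa, had 592, 688 and 550.1 TPM in the Smad4KO libraries, against 55.03, 71.3 and 53.8 TPM in the WT libraries. Wfdc2, the most abundant member, had 1606, 1562 and 1610.0 TPM in the Smad4KO libraries, against 898, 854 and 805.5 TPM in the WT libraries. Lyz2, the 1 gene called lower, is also a macrophage marker.

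Respiratory chain genes were modestly higher and genes of hypoxia and glycolysis lower. Of 27 tested oxidative phosphorylation subunits, 23 were higher and none was lower, with a median of 0.44, and 4 passed the minimum change of 0.5. After scaling, 19 stayed higher. Sdha, a subunit of succinate dehydrogenase, had 190.5, 202 and 183 TPM in the Smad4KO libraries, against 110.3, 114 and 109 TPM in the WT libraries. Its change was the largest of the list, at 0.78. Of 19 tested hypoxia-induced genes, 16 were lower and 1 was higher, with a median of -0.73, and the 1 higher call was lost after scaling. Bnip3, a mitochondrial receptor of mitophagy, had 113, 119.5 and 108 TPM in the Smad4KO libraries, against 253, 276 and 313 TPM in the WT libraries. Of 21 tested glycolysis genes, 13 were lower and 2 were higher. Slc16a3, the lactate exporter MCT4, had 23.8, 26.9 and 26.99 TPM in the Smad4KO libraries, against 114, 102 and 98.02 TPM in the WT libraries, and Slc2a1, the glucose transporter GLUT1, changed by -1.100. Without overlap, both were lower in Smad4KO. Beside Slc16a3, 1 other glycolysis gene passed the minimum change of 0.5.

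Immediate-early and heat shock genes were lower in 19 of 22 tested cases, with a median of -0.87, and none was called higher. Hspa1a had 12.6, 10.9 and 12.97 TPM in the Smad4KO libraries, against 59.97, 66.5 and 75.4 TPM in the WT libraries, and reads may be shared with its near-identical neighbour Hspa1b, at -1.85. Hspb1, a small heat shock protein, had 187, 153.5 and 178.5 TPM in the Smad4KO libraries, against 786, 709 and 758 TPM in the WT libraries, and Klf2 changed by -1.57. Of 33 tested DNA replication and mitosis genes, 20 were higher and none was lower. The median was 0.30, 15 stayed higher after scaling, and none passed the minimum change of 0.5. Ccnb1, cyclin B1, changed the most, by 0.58. Mycn, a paralogue of Myc, had 20.4, 23.3 and 18.1 TPM in the Smad4KO libraries, against 8.72, 9.55 and 8.29 TPM in the WT libraries, while Myc itself changed by -0.11 (adjusted p = 0.212).

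Most listed genes of interferon response and antigen presentation were higher in Smad4KO, with their WT levels lowest in replicate 3. Ifitm1, interferon-induced by its name but outside the interferon list, went the other way, at -2.96 (adjusted p = 3.47e-08). Cd74, the invariant chain of MHC class II, had 2722, 2226 and 2820.0 TPM in the Smad4KO libraries, against 279.7, 223 and 127 TPM in the WT libraries. The change was 3.68 ± 0.22 (SE), with an adjusted p of 1.23e-07, and 3.36 without WT replicate 3. Tap1, the peptide transporter of the class I pathway, had 133, 132 and 142 TPM in the Smad4KO libraries, against 34.7, 27.1 and 14.6 TPM in the WT libraries, and Gbp5, an interferon-induced GTPase, changed by 3.41. Of 9 tested MHC class II genes 8 were higher, and without WT replicate 3 the count was the same, with a median of 3.04 in place of 3.30. The class I list had 21 of 21 tested genes higher, and the interferon list 39 of 42, with or without it. Their medians moved to 1.35 and 1.22 without it, against 1.52 and 1.38 with it. Chemokines that attract T cells were higher in 7 of 9 cases, and Ccl3 and Ccl4 were lower, 1 of them no longer called without Smad4KO replicate 2 or WT replicate 2. Cxcl9 had 124, 126 and 126 TPM in the Smad4KO libraries, against 11.9, 9.35 and 5.41 TPM in the WT libraries, with a log2 change of 3.73, and 3.45 without WT replicate 3. Most myeloid attractants moved the other way. Of 18 tested genes on the list of CXCR2 ligands and myeloid growth factors, 13 were lower and 1, Ccl20, was higher. Cxcl5, the most abundant member, was not called (0.277, adjusted p = 0.0728). It had 106.3, 102.5 and 97.9 TPM in the Smad4KO libraries, against 74.5, 73.4 and 108.8 TPM in the WT libraries. Cxcl2 had 21.5, 13.6 and 19.6 TPM in the Smad4KO libraries, against 68.5, 127 and 110.5 TPM in the WT libraries, and Ccl20 had 26.6, 19.3 and 26.7 TPM in the Smad4KO libraries, against 4.05, 9.60 and 4.59 TPM in the WT libraries. Neither overlapped between genotypes. Among 14 tested checkpoint genes 8 were higher (57.1%, against 32.2% of all genes) and 1 was lower (7.14%, against 17.4%), or 4 lower after scaling. Ido1 had 38.4, 38.3 and 40.8 TPM in the Smad4KO libraries, against 10.8, 7.39 and 6.21 TPM in the WT libraries.

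Transcripts of other cell types were detected beside these genes. Of 16 tested macrophage and monocyte markers 1 was higher (6.25%, against 32.2% of all genes) and 2 were lower (12.5%, against 17.4%). Their summed TPM was 543 to 1640 in Smad4KO and 1530 to 2860 in WT. The number lower ranged from 0 to 5 as each library was left out, and was 0 without Smad4KO replicate 2, WT replicate 2 or WT replicate 3. Lyz2, at an adjusted p of 0.049, had 276, 69.3 and 274.5 TPM in the Smad4KO libraries, against 321, 688 and 305 TPM in the WT libraries. Its call was lost without Smad4KO replicate 2 (-0.565, adjusted p = 0.165) and without WT replicate 3 (-1.43, adjusted p = 0.0512). Of 8 alternative activation markers 3 were higher (37.5%, against 32.2% of all genes) and 2 were lower (25.0%, against 17.4%). These counts were 5 and 1 without Smad4KO replicate 2, and 2 and 1 without WT replicate 3. Retnla, a secreted protein of such macrophages, had 468, 57.5 and 470.3 TPM in the Smad4KO libraries, against 12.5, 36.7 and 35.6 TPM in the WT libraries, with replicate 2 again the lowest of its group, and without that library its log2 change was 4.15 (adjusted p = 2.24e-05), against 3.15 with it. Chil3 had 87.5, 95.4 and 88.5 TPM in the Smad4KO libraries, against 5.59, 9.43 and 18.8 TPM in the WT libraries, and replicate 2 did not stand apart there. Of 8 tested general leukocyte markers 2 were lower (25.0%, against 17.4% of all genes) and none was higher. The number lower was 1 when Smad4KO replicate 2 or any 1 of the WT libraries was left out. Their median of -0.19 was 0.059 without Smad4KO replicate 2. They had a summed TPM of 54.3 to 104 in Smad4KO and 107 to 141 in WT. T and NK cell markers summed to 9.97 to 16.2 TPM in Smad4KO and 2.62 to 6.68 TPM in WT, with 4 of 8 tested higher, among them Nkg7 at 2.06, 2.03 and 2.22 TPM in the Smad4KO libraries, against 0, 0.115 and 0.374 TPM in the WT libraries. Ncr1 was listed at 0 in every Smad4KO library. B and plasma cell markers summed to at most 5.03 TPM in Smad4KO and 2.53 TPM in WT. The part of these cells in the MHC class II, chemokine and interferon counts was not tested. Of 5 dendritic cell and 3 endothelial markers tested none was called, and their summed levels were at most 10.9 TPM in Smad4KO and 10.7 TPM in WT. Among 5 tested red cell and platelet markers 2 were lower (40.0%, against 17.4% of all genes). Among 3 tested pericyte markers 1 (33.3%), Rgs5, was lower at -1.75. Of the acinar and endocrine pancreas genes, both tested members were higher. Cela1, an elastase gene, had 79.4, 73.3 and 76.6 TPM in the Smad4KO libraries, against 58.9, 53.97 and 54.9 TPM in the WT libraries, and Ctrb1, which encodes a chymotrypsinogen, changed by 1.94. Their list summed to 75.5 to 82.6 TPM in Smad4KO and 54.0 to 58.9 TPM in WT, while Ptf1a and 7 other members were listed at 0 in all 6 libraries.

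**Figure D4:**
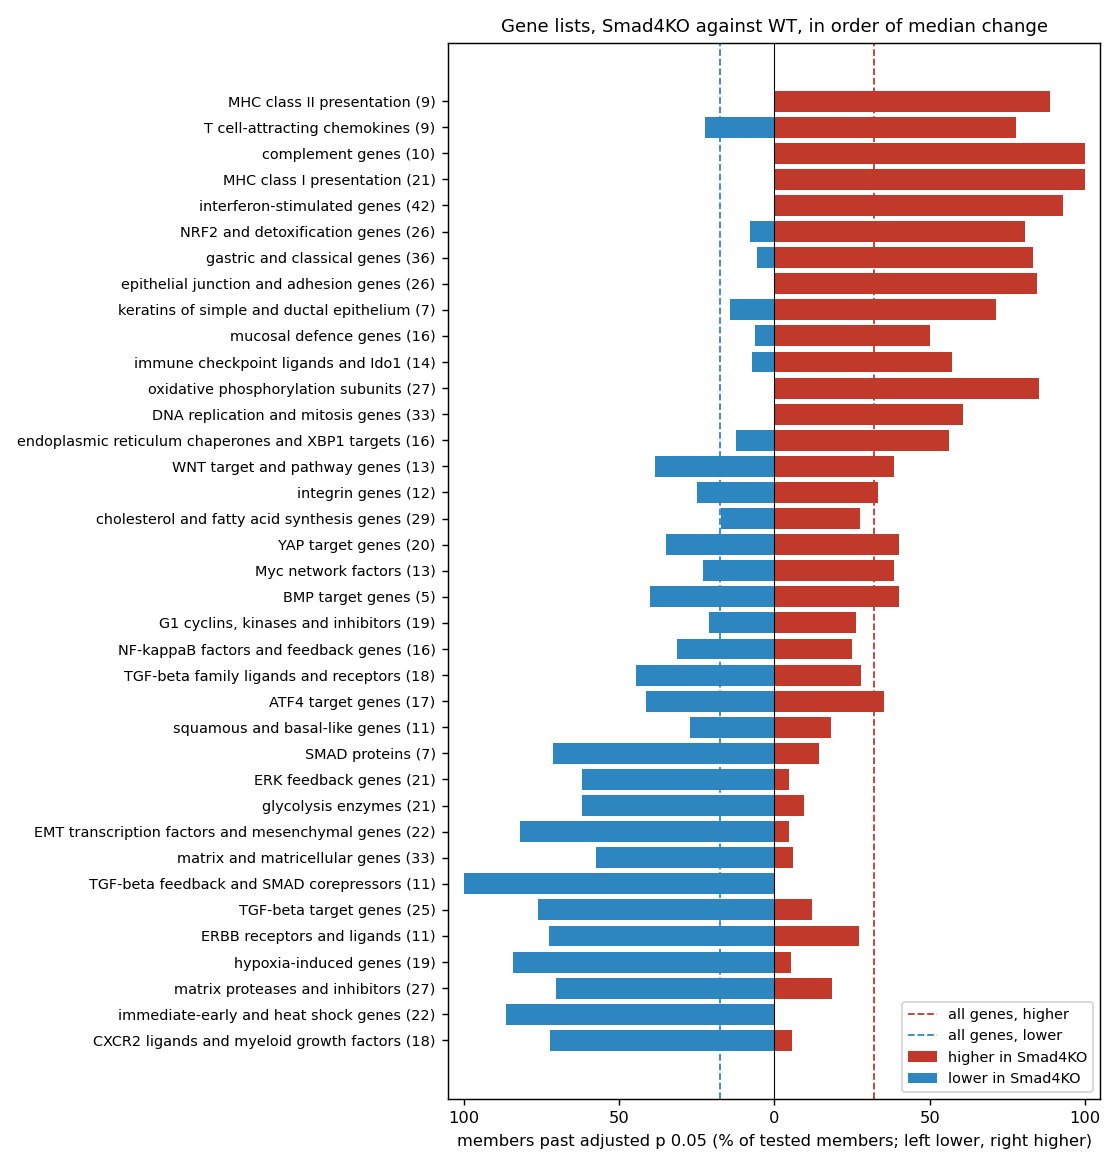
The plot of gene lists gives, for 37 lists on the y axis with the number of tested members in brackets, the percent of tested members called higher in Smad4KO to the right and lower to the left on the x axis. Dashed lines mark the 32.2% and 17.4% of all genes. Lists of antigen presentation, complement and epithelial junctions reach far to the right, and the TGF-beta feedback, hypoxia and immediate-early lists far to the left.

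Direct contrasts with the other knockouts tested which changes differed between them, since the WT mean cancels. Against EgfrKO, 1977 genes (14.5%) were higher in Smad4KO and 2554 (18.7%) lower, or 2672 and 2255 after scaling. Against Klf5KO, 2506 (18.3%) were higher and 6210 (45.5%) lower, a split that became 4269 and 3973 after scaling. Higher in Smad4KO than in EgfrKO, Klf5KO and WT alike were 1085 genes (7.94%), and lower than in all were 1097 (8.03%). For the junction list, 17 of 26 tested genes were higher than in all 3 other genotypes. For the gastric list this count was 21 of 36, for detoxification 17 of 26, for complement 9 of 10 and for oxidative phosphorylation 14 of 27. Lower than in all 3 were 12 of 22 EMT and mesenchymal genes, 12 of 33 matrix genes, 6 of 11 TGF-beta feedback genes and 6 of 25 TGF-beta targets. For ERK feedback this count was 5 of 21, for immediate-early and heat shock genes 5 of 22, for hypoxia 3 of 19, for glycolysis 3 of 21 and for CXCR2 ligands and myeloid growth factors 2 of 18. The medians of these 5 lists against EgfrKO were -0.066, -0.191, -0.024, -0.095 and -0.236. Inhba did not differ by call from EgfrKO (0.18, adjusted p = 0.114), and Bmp2 was higher than in EgfrKO (0.54).

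No member of the MHC class I list, the MHC class II list or the interferon-stimulated list was called in one direction against all 3 other genotypes. Cd74 in Smad4KO differed by 0.63 from EgfrKO and by -0.16 from Klf5KO on the log2 scale. For Klf5KO that difference was not called (adjusted p = 0.537). Slc16a3, lower than in WT as given above, had 23.8, 26.9 and 26.99 TPM in Smad4KO, 27.7, 24.7 and 25.6 TPM in EgfrKO and 59.3, 69.96 and 68.8 TPM in Klf5KO. Its difference from EgfrKO was -0.004 ± 0.083 (SE, adjusted p = 0.976), while that from Klf5KO was -1.31 ± 0.083 (SE, adjusted p = 1.17e-07). A difference that misses the threshold does not show that the levels are alike.

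The genes highest in Smad4KO relative to both other knockouts were Pigr, Sftpd, Spink4, Gpx2, Prap1, Dmbt1, Dio3os and Epcam. Pigr had 52.8, 54.4 and 53.1 TPM in Smad4KO, 0.338, 0.630 and 0.625 TPM in EgfrKO, 0.0212, 0.0872 and 0.0494 TPM in Klf5KO and 0.625, 0.206 and 0.317 TPM in WT. Its difference was 5.16 ± 0.13 (SE, adjusted p = 1.73e-09) from EgfrKO and 5.69 ± 0.13 (SE, adjusted p = 7.77e-11) from Klf5KO. Gpx2 had 115, 109.8 and 114 TPM in Smad4KO, 3.14, 2.81 and 3.21 TPM in EgfrKO, 0, 0.158 and 0 TPM in Klf5KO and 3.58, 5.52 and 6.84 TPM in WT. Gpx2 stood above every library of the other genotypes. Pigr reached 1 TPM only in Smad4KO libraries and passed the filter through them. Its lack of overlap was thus fixed by the filter, and its p-values are not independent of it. Epcam had 40.7, 41.02 and 36.8 TPM in Smad4KO, 1.35, 1.36 and 1.21 TPM in EgfrKO and 0.679, 0.314 and 0.624 TPM in Klf5KO, so that the Smad4KO libraries exceeded WT and the other knockouts lay below it. Dmbt1 differed from EgfrKO by 3.72 and from Klf5KO by 7.21. Dio3os is an antisense transcript, and its value is uncertain because the use of strand in counting is not given.

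The genes lowest relative to both were Rhox5, Mmp12, Trem2, Wisp2, Podnl1, Lect2, Tmem252 and Enpp2. Rhox5, an X-linked homeobox gene, had 7.31, 4.04 and 6.23 TPM in Smad4KO, 125, 112 and 108 TPM in EgfrKO, 136, 124 and 156 TPM in Klf5KO and 31.1, 28.5 and 50.4 TPM in WT. The other knockouts were thus above WT and Smad4KO below it, with differences of -4.11 ± 0.21 (SE, adjusted p = 1.46e-07) from EgfrKO and -4.37 ± 0.21 (SE, adjusted p = 1.36e-08) from Klf5KO. Lect2 had 0.433, 0.854 and 0.418 TPM in Smad4KO, 9.04, 9.23 and 11.8 TPM in EgfrKO and 17.7, 13.3 and 19.2 TPM in Klf5KO. Podnl1 and Wisp2, secreted matrix proteins, differed from EgfrKO by -2.08 and -2.09 and from Klf5KO by -3.08 and -2.46. Mmp12, a macrophage metalloelastase, had 3.02, 3.69 and 3.44 TPM in Smad4KO, 22.8, 22.9 and 23.1 TPM in EgfrKO, 21.9, 29.8 and 46.9 TPM in Klf5KO and 9.71, 18.98 and 17.6 TPM in WT. Trem2 is a macrophage receptor and differed from EgfrKO by -2.204. Of the macrophage list, 7 of 16 markers were lower in Smad4KO than in EgfrKO and 11 than in Klf5KO, where 18.7% and 45.5% of all genes were lower. The part of macrophage RNA in these 2 genes was not tested. Enpp2, which makes lysophosphatidic acid, had 10.8, 9.06 and 9.40 TPM in Smad4KO, 58.6, 54.5 and 53.6 TPM in EgfrKO, 122.5, 109.6 and 150.2 TPM in Klf5KO and 12.3, 10.9 and 14.6 TPM in WT, and its decrease against WT alone was lost when any of 4 single libraries was left out, with an adjusted p of up to 0.152.

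**Figure D5:**
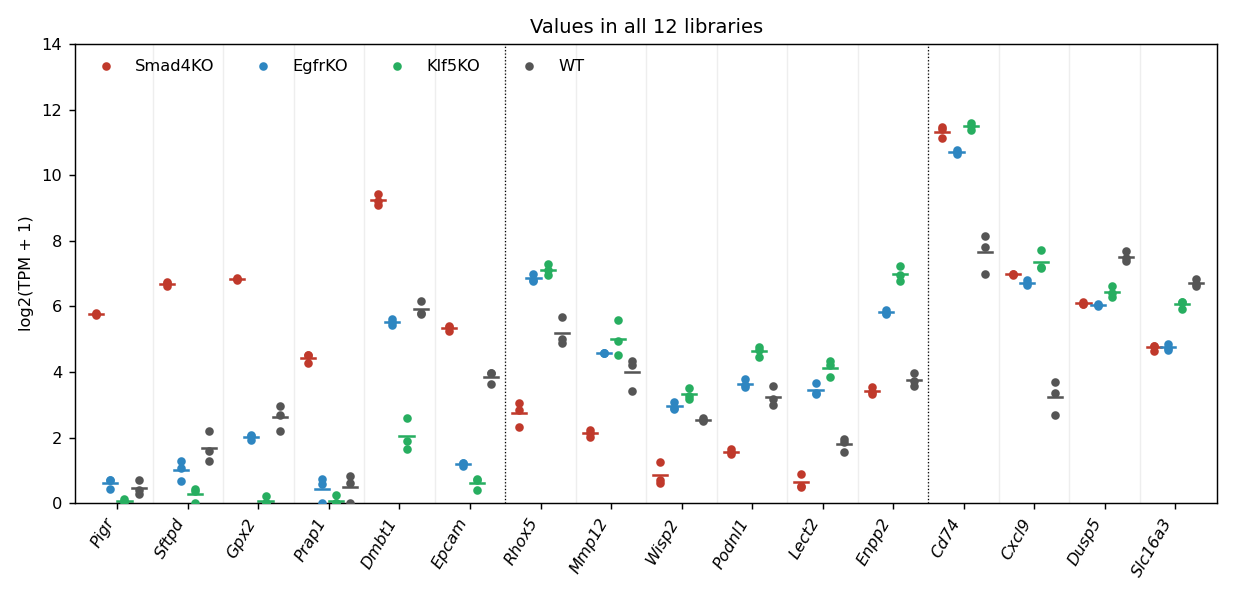
The plot of all genotypes gives log2(TPM + 1) on the y axis for 16 genes on the x axis, a point for each of the 12 libraries and a line for each group mean, in the order Smad4KO, EgfrKO, Klf5KO and WT. The 6 genes on the left are highest in Smad4KO and the 6 in the middle lowest, while Cd74 and Cxcl9 on the right are lowest in WT and Dusp5 and Slc16a3 highest there.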

How the data were processed

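RNA of the sorted cells was sequenced, and the authors deposited 1 table of TPM values, which the submitters' processing notes tie to Salmon and mm10. No source used here gives the Salmon version, the annotation or the use of strand. TPM holds no depth, so no counting error could be given, and any library-wide shift moves all of its values.

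Values were taken as log2(TPM + 1), after keeping genes with at least 1 TPM in at least 3 of 12 libraries. A limma 3.58.1 fit in R 4.3.3 of the 4 genotype means, with an intensity trend, gave moderated tests of Smad4KO against WT, EgfrKO and Klf5KO. P-values were adjusted by Benjamini-Hochberg over all 13662 genes at 0.05. In simulated data the fit recovered 54.4%, 89.8% and 97.3% of log2 changes of 0.5, 1 and 2, with 8 false calls among 13462 unchanged genes. Only 200 genes were changed there, with independent noise and no shift of whole libraries. The simulation therefore does not give the rate of false calls in the real libraries. Of 24493 symbols, 23852 matched RefSeq GRCm38.p6, the build that mm10 names, which gave coordinates and promoters. The alternatives were a pseudocount of 0.1, other filters, scalings and spread estimates, a replicate block, a minimum change of 0.5 and leaving out each library.

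The members and gene lists were chosen with earlier results of these data known. Genes were named by rule: all SMAD, ligand, receptor, feedback, target and BMP genes, the 12 largest called changes each way without overlap of libraries, the extremes and most abundant members of each other list, and the 8 genes most above or below both other knockouts. Genes outside the rule are named as members of small counts or as chosen after their values were seen.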

Additional observations from a re-analysis of the deposited data

How the results depend on the processing

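No named gene called in the comparison with WT changed sign under any alternative run, but the balance of higher and lower calls turned with the scaling. Against EgfrKO, 1977 higher and 2554 lower became 2672 and 2255 after median-of-ratios scaling. Some list medians near 0 changed sign, among them those of YAP targets (0.017, and -0.087 after scaling), integrins (0.091 and -0.015) and cholesterol genes (0.07 and -0.035). Against WT, each count stayed within 1.5 times of 4400 higher and 2381 lower under a pseudocount of 0.1 (4411 and 2398), no filter (4367 and 2429), a filter of at least 5 TPM (3867 and 2038), median-of-ratios scaling (3427 and 3381), quantile normalization (3173 and 3506, more lower than higher), the 20 most abundant genes left out (4236 and 2622), no trend (4381 and 2336) and a fit of the 2 groups only (4231 and 2264). Leaving out each library gave 3666 to 4183 higher and 2042 to 2234 lower, and a Smad4 change of -1.33 to -1.23. A test against a minimum log2 change of 0.5, which asks for more by construction, called 932 higher and 562 lower against WT, 357 and 221 against EgfrKO, and 813 and 1655 against Klf5KO. Against Klf5KO, scaling gave 4269 higher and 3973 lower in place of 2506 and 6210, and the cause was not tested. Leaving out each library gave 1536 to 1953 higher and 1836 to 2537 lower against EgfrKO, and 2265 to 2502 higher and 5609 to 6173 lower against Klf5KO. Libraries that share a replicate number did not deviate together, with correlations of -0.052, -0.149 and -0.11 between Smad4KO and WT, and the replicate block gave 4338 and 2289 calls against WT, 1947 and 2445 against EgfrKO, and 2514 and 6183 against Klf5KO. Of 286 named genes other than Smad4, 88 lost a call under at least 1 alternative, most often under the minimum change. The unknown depth limits statements on genes near 0.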
